A study of Mus musculus with 6 samples.

Results

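Bidirectional long noncoding RNAs (lncRNAs) are transcripts that start close to a protein-coding gene and run away from it on the opposite strand. In the deposited lncRNA table, transcripts of this class lie head to head with a coding transcript within 1000 bases. Of 31550 lncRNA transcripts in the table, 1527 carried this class in every row. The set described here is the 442 of them with at least 0.1 FPKM (fragments per kilobase of transcript and unit of sequencing depth) in at least 3 of 6 libraries, after 4 transcripts of Snhg genes were left out. These 442 transcripts came from 383 gene names and formed 443 pairs with 367 coding partners, all of which were found in the mRNA table. The other 1081 bidirectional transcripts fell below the level filter, and 594 of the class were at 0 FPKM in every library. The members nearest the filter had a third-highest value of 0.1003 FPKM (Gm26511) inside it and 0.0995 FPKM (AK142369) outside it.

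The cells were C57BL/6 mouse aortic vascular smooth muscle cells, the contractile cells of the vessel wall, grown in serum-supplemented medium. Ribosomal RNA was removed from total RNA before library construction with a stranded kit. A group of 3 libraries came from cells given adenovirus labelled as a knockdown of Myocd, the smooth muscle transcriptional coactivator myocardin, and 3 came from cells given the negative control virus, both for 48 h. Nothing in the labels says that the replicates were separate cultures or animals, so p-values measure only the spread between these libraries.

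Myocd goes against the group label. The labelled knockdown libraries held Myocd at 132, 130 and 146 FPKM, and the labelled controls at 0.0355, 0 and 0.125 FPKM. Every direction below is therefore that of the library labelled knockdown against the library labelled control, and not of a loss of Myocd. Of 13 smooth muscle markers, 10 reached 1 FPKM, and their summed level was 796 to 842 FPKM in the labelled knockdown libraries and 443 to 500 FPKM in the labelled controls; Myh11, a marker of contractile smooth muscle, was under 0.1 FPKM in every library. None of 7 endothelial markers reached 1 FPKM, while 1 of 7 measured macrophage and blood markers, 3 of 7 fibroblast markers and 2 of 5 mesothelial and epithelial markers did. The summed levels, labelled knockdown against labelled control, were 1.30 to 2.43 against 0.447 to 1.01 FPKM for the endothelial list and 22.8 to 27.3 against 21.7 to 22.8 FPKM for the fibroblast list, both without overlap. They were 4.23 to 5.53 against 2.83 to 5.37 FPKM for the macrophage and blood list and 302 to 324 against 320 to 351 FPKM for the mesothelial and epithelial list, both with overlap. Kdr, Cldn5, Emcn, Ptprc, Csf1r, Itgam, Cd3e and Epcam were under 0.1 FPKM in every library. The part of these other cells in the results was not tested, and in bulk RNA fewer cells of a type and less RNA per cell cannot be told apart. Libraries held 7528170 to 9793781 fragments in coding genes, and 61607 to 77813 in the bidirectional lncRNAs. Without ENSMUST00000157463, the main transcript of Rmrp and the most abundant member, the bidirectional lncRNAs took 21096 and 21681 fragments in the replicate 3 libraries. The other 4 libraries held 15131 to 17217. Of these fragments, the transcript Metazoa_SRP alone took 9175 and 7682 in the replicate 3 libraries and 2000 to 4376 in the other 4. The second Rmrp transcript, NR_001460, stayed in these sums at 733 to 1082 fragments per library.

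Many mammalian promoters start transcription in both directions from a shared nucleosome-free region, usually a CpG island. The coding strand yields a stable mRNA, while the upstream transcript is commonly short-lived and low in abundance. Some upstream partners are instead well-known stable RNAs, such as the RNA subunits of the ribonucleases that process ribosomal and transfer RNA precursors.

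The promoters of 4 coding genes show the layout of the pairs. They were picked with the values known, because the results below turn on the pairs or because the lncRNA is very abundant. Each sequence is the 250 bases upstream of the RefSeq start of the coding gene (GRCm38.p6), written 5′ to 3′ on the coding strand. Capitals mark matches on either strand to GGGCGG (the GC box), CACGTG (the E-box) or CCGGAAG (an ETS-type site).
Parp2 (chr14:50807666-50807915, plus strand): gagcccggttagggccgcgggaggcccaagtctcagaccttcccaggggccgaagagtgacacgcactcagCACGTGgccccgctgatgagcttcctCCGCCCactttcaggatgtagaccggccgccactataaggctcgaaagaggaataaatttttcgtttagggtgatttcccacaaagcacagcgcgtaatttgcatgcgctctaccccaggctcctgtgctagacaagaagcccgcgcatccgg
Rfc4 (chr16:23127731-23127980, minus strand): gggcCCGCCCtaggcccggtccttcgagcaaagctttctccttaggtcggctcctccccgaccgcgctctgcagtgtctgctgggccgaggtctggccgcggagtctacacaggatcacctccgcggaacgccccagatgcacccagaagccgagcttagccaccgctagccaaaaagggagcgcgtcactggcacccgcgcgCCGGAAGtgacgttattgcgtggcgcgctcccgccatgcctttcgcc
Sema5a (chr15:32244563-32244812, plus strand): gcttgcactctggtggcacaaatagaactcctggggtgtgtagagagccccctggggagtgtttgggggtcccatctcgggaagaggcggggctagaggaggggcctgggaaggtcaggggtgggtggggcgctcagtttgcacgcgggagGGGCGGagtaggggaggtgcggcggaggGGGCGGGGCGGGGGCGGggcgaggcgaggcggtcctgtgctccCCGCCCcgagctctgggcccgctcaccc
Myl6b (chr10:128498686-128498935, minus strand): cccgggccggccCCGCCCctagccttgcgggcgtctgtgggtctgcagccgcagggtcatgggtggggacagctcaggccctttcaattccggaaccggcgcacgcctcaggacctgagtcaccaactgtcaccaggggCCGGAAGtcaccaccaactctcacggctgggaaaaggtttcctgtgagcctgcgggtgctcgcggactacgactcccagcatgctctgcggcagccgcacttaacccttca
Starts of lncRNAs, here and below, are edges of the locus, which all its transcripts share. Parp2 encodes a DNA-damage-activated poly(ADP-ribose) polymerase. It is paired with Rpph1, the RNA component of RNase P, whose start lies 145 bases upstream of the start used here. Rfc4 encodes a subunit of the clamp loader of DNA replication, and AK018147 starts 63 bases upstream of it. Sema5a encodes an axon guidance semaphorin, and 0610007N19Rik starts 151 bases upstream. Myl6b encodes a myosin light chain, and AK040027 starts 562 bases upstream, outside the printed window. The Sema5a window holds 5 GC boxes, some overlapping, and the other 3 windows hold 1 each. The ETS-type letters occur 47 bases upstream of Rfc4 and 111 bases upstream of Myl6b, and the E-box letters 179 bases upstream of Parp2.

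The windows of 278 coding partners were rich in G and C. Their median GC content was 65.2%, against 52.4% over all 32851 windows and 60% over the 8638 windows of coding genes tested here. The observed to expected CpG ratio, a measure of how far CpG dinucleotides have been kept, was 0.871 at the median, against 0.373 and 0.747 in the same order. A ratio over 0.6 was found in 91.0% of partner windows, 34.0% of all windows and 70.6% of tested coding windows. GGGCGG was present in 71.6% of partner windows, 32.7% of all and 61.0% of tested coding windows. CCGGAAG was present in 23.4%, 6.91% and 14.7%, and the palindromic NRF1 site in 3.24%, 0.782% and 1.77%. The TATA letters TATAAA were present in 5.04% of partner windows, against 12.4% of all and 6.12% of tested coding windows. CCAAT was present in 32.0%, 33.8% and 37.5%, CACGTG in 8.63%, 6.02% and 8.56%, and the cyclic AMP response letters TGACGTCA in 3.60%, 1.55% and 2.89%. The CArG box, the site of serum response factor, through which myocardin acts, was present in 3 partner windows (1.08%), against 1.47% of all and 1.15% of tested coding windows. Among these 3, the Lima1 window starts 55307 bases from the start in its pair. All motifs were searched on both strands, matches may overlap, and a match is only a match of letters.

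The distance between the starts of the lncRNA and its partner could be measured in 336 pairs, all on opposite strands. The other 107 lie in loci that the table gives as 1 merged interval. The lncRNA start was the edge of its locus, and the partner start was the nearest among its transcripts. Of the 442 lncRNAs, 239 lie in loci with 2 or more transcripts, so distances repeat and can be shorter than those of single transcripts. The median distance was 135 bases, with quartiles of 85.75 and 252.5 bases and a range of 2 to 972 bases. Of these pairs, 225 had starts within 200 bases of each other and 27 were more than 500 bases apart. The shortest distance belonged to 8430429K09Rik and Rnf185, a ubiquitin ligase gene.

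**Figure D1:**
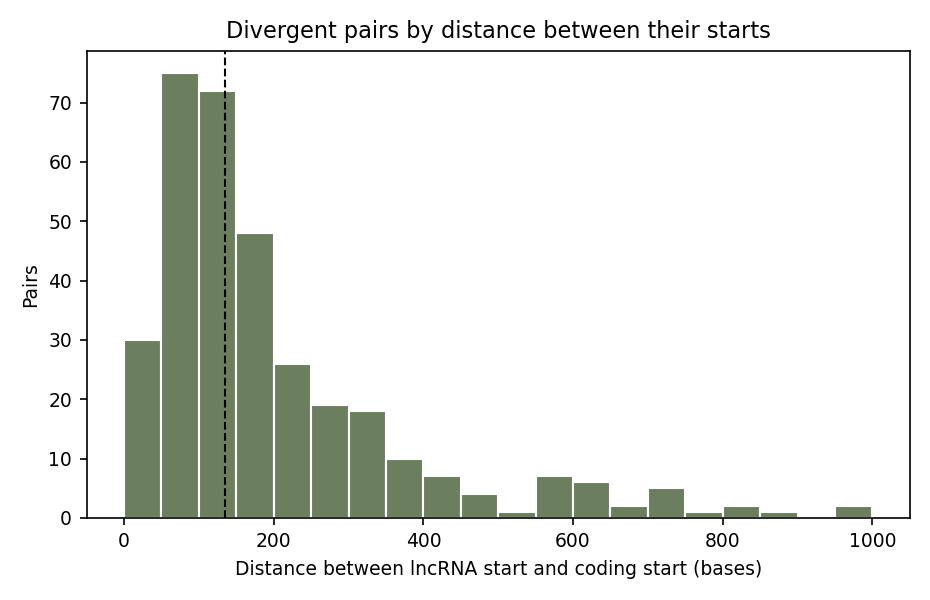
Number of divergent pairs (y axis) by the distance in bases between the lncRNA start and the coding start (x axis, bins of 50 bases), for the 336 pairs with separate starts; the dashed line is the median, 135 bases. The lncRNA start is the edge of its locus, so pairs of the same locus and partner repeat a distance. Most pairs, 225, lie within 200 bases.

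The single lncRNA transcripts were far less abundant than their partners. The partner level is that of a whole gene and the lncRNA level that of 1 transcript. As 239 of the 442 lie in loci with 2 or more transcripts, the folds below can overstate the gap between the lncRNA locus and its partner. The median level over 6 libraries was 0.370 FPKM for the lncRNAs (quartiles 0.195 and 0.752) and 19.9 FPKM for the coding partners. The partner was the higher of the pair in 429 of 443 pairs (96.8%), by a median of 49.9-fold (quartiles 15.1 and 128). Only 82 of the 442 lncRNAs averaged 1 FPKM or more, and 8 averaged 10 FPKM or more. In fragments, the median member had 25 over all 6 libraries together (quartiles 11 and 60), and 195 members (44.1%) had fewer than 20. Across 438 pairs, which share the same libraries, Spearman's rho between the levels of lncRNA and partner was 0.02.

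The 14 exceptions included stable structural RNAs. Rmrp, the RNA of the RNase MRP ribonuclease, is divergent to Ccdc107 at chr4:43492785-43495921 (mm10). Its main transcript was at 61774, 59828 and 59527 FPKM in the labelled knockdown libraries and at 61268, 62233 and 60738 FPKM in the labelled controls. These ranges overlapped, and the difference on the log2 scale was −0.02 (SE 0.10, limma adjusted p = 0.933). The second Rmrp transcript, NR_001460, averaged 1111 FPKM with overlapping groups (log2 0.18, limma adjusted p = 0.650). Ccdc107 itself averaged 17.2 FPKM. The main transcript of Rpph1 was at 5367, 5225 and 5482 FPKM against 5805, 5801 and 5517 FPKM. Its groups did not overlap, but the difference of −0.09 on the log2 scale (SE 0.08) did not pass the test (limma adjusted p = 0.634). The second Rpph1 transcript, NR_002142, averaged 89.8 FPKM with overlapping groups (log2 −0.79, limma adjusted p = 0.732). Metazoa_SRP, a signal recognition particle RNA upstream of the ribosomal protein gene Rps29, was at 4327, 3320 and 9492 FPKM against 1837, 2206 and 6361 FPKM. The replicate 3 library was the highest of each group, and the groups overlapped (limma adjusted p = 0.586). Gas5, a snoRNA host gene opposite Zbtb37, was at 12.9, 12.2 and 10.3 FPKM for its main transcript, against 13.0, 13.1 and 13.9 FPKM. The labelled knockdown values all lay below the labelled control values, without passing the test (log2 −0.18, SE 0.12, limma adjusted p = 0.541). Its 3 other bidirectional transcripts did not pass either: ENSMUST00000161229 was higher without overlap (log2 0.15), and ENSMUST00000065709 (log2 2.60) and ENSMUST00000159438 (log2 −1.01) had overlapping groups. Foxd2os, which is divergent to the forkhead factor gene Foxd2, also exceeded its partner, at an average of 0.967 FPKM against 0.456 FPKM.

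By limma on log2(FPKM + 0.1), 25 of the 442 bidirectional lncRNAs (5.66%) differed between the groups at an adjusted p under 0.05, against 4.26% of all 4955 lncRNA transcripts tested. Of these, 9 were higher in the labelled knockdown libraries, against 2.22% of all transcripts, and 16 were lower, against 2.04%, and 76 members had an unadjusted p under 0.05. The calls sit on few fragments: in 24 of the 25, 1 group had no fragments and the transcript passed the level filter through the other group alone, so it had to differ and its count supports nothing. In 20 of the 25 the higher group held 10 fragments or fewer over its 3 libraries, and in 7 each library of that group held exactly 1 fragment. A count of 0 allows up to 3 fragments, so no fold change is given for these transcripts. By edgeR's quasi-likelihood test on recovered fragments, 0 of the 119 members with enough fragments passed (11 with an unadjusted p under 0.05, lowest adjusted p = 0.173), against 0.0431% of all lncRNA transcripts. DESeq2 called 4, all lower, against 0.888% of all: single transcripts of 8430429K09Rik, 4632427E13Rik, AK040027 and 4833418N02Rik. The limma count was 7 without labelled knockdown replicate 1, 0 without replicate 2 and 27 without replicate 3, and it was 9, 10 and 9 without labelled control replicates 1, 2 and 3.

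**Figure D2:**
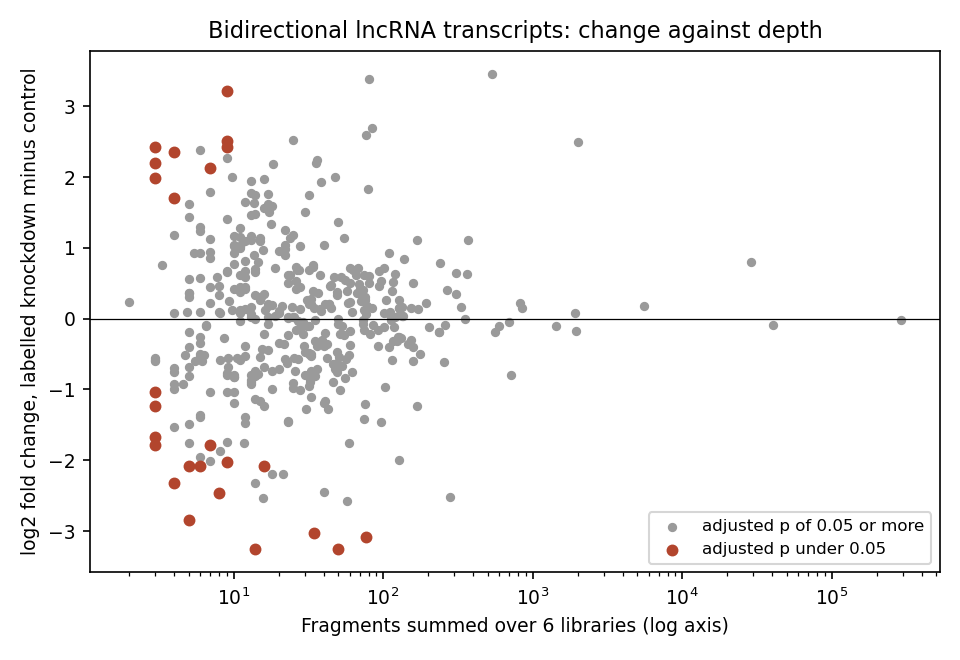
The log2 fold change (y axis, labelled knockdown minus control, on log2(FPKM + 0.1)) of each of 442 bidirectional lncRNA transcripts against its fragments summed over 6 libraries (x axis, log scale); red points have a limma adjusted p under 0.05. Of the 25 red points, 24 had a mean of fewer than 10 fragments per library; AK040027, the other, had 77 in all.

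Differences were larger among lncRNAs with fewer fragments. The median absolute log2 fold change was 0.32 among the 113 members with a mean of 10 or more fragments per library, of which 1 was called, and 0.72 among the other 329, of which 24 were called. Over all members the median signed log2 fold change was 0.08, against 0.00 over all lncRNA transcripts. The groups did not overlap in 105 members (23.8%), against 23.3% of all lncRNA transcripts tested. Of these 56 were higher, against 12.7% of all, and 49 lower, against 10.7%. Part of these counts was set by the level filter. It was passed through the labelled controls alone by 21 members and through the labelled knockdown libraries alone by 20, and these could not overlap.

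The called lncRNAs with the most fragments were AK040027, 8430429K09Rik, 4833418N02Rik, 4933421A08Rik and Gm14454, all lower. The called transcripts of all but AK040027 passed the level filter through the labelled controls alone. They had to differ, so their p-values support nothing. AK040027, divergent to Myl6b, had 0, 0 and 3 fragments in the labelled knockdown libraries and 19, 29 and 26 in the labelled controls (limma adjusted p = 0.0321, edgeR adjusted p = 0.173). Every labelled control library was above every labelled knockdown library. Myl6b itself was at 15.4, 10.7 and 15.01 FPKM against 13.5, 13.3 and 9.81 FPKM, with overlapping groups (limma adjusted p = 0.625). Gm14454, divergent to Pmepa1, a TGF-beta-induced inhibitor of SMAD signalling, had 0 fragments in each labelled knockdown library and 3, 5 and 6 in the labelled controls (limma adjusted p = 0.0127). Pmepa1 was at 5.34, 4.83 and 4.62 FPKM against 4.87, 3.25 and 4.61 FPKM. 4933421A08Rik, divergent to the lipid transporter gene Mfsd2a, had 0 fragments in each labelled knockdown library against 5, 6 and 5 (limma adjusted p = 0.0136). Among the higher transcripts, AK132087, divergent to the RNA-binding protein gene Rbm15, had 2, 5 and 2 fragments against 0 in each labelled control (limma adjusted p = 0.0182). It passed the level filter through the labelled knockdown group alone, so it too had to differ.

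Several of the differences were smaller in the total of the locus than in the single transcript. The transcript NR_045276 of 8430429K09Rik (chr11:3452365-3479831, mm10) had 0 fragments in each labelled knockdown library and 9.9, 20 and 19.7 in the labelled controls (limma adjusted p = 0.0136). Its sister transcript NR_045275, named after its values were seen, had 22, 20 and 1.5 fragments against 1.5, 1.6 and 1.4. Over all transcripts of the locus the sums were 22, 20 and 22 against 24, 31 and 38 fragments (limma adjusted p = 0.663, on FPKM summed over the locus, as for the loci below). These sums of fragments did not overlap. 4833418N02Rik, divergent to Ttc7, had 0 fragments against 18.4, 9.3 and 6.7, while its locus held 35, 23 and 18 against 35, 27 and 42 (limma adjusted p = 0.702). NR_045276 and this transcript passed the level filter through the labelled controls alone, so they had to differ. The AK040027 locus held 13, 10 and 3 fragments against 19, 29 and 26, without overlap. This smaller difference did not pass (edgeR log2 −1.40, adjusted p = 0.288).

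Opposite patterns within a locus were also seen in transcripts that did not pass limma. AK014157 and 4632427E13Rik, both divergent to the small GTPase gene Rab30 and both named after their values were seen, are such a case. AK014157 had 138, 111 and 139 fragments against 146, 0 and 0, and the transcript ENSMUST00000098305 of 4632427E13Rik had 5.1, 4.5 and 5.2 against 5.2, 132 and 129; DESeq2 called the latter lower (adjusted p = 0.00943) and limma did not (adjusted p = 0.338). The locus sums were 413, 353 and 312 against 428, 379 and 389 fragments (limma adjusted p = 0.952). For 3110056K07Rik, divergent to the chromatin gene Arid4a, NR_045056 had 34, 25 and 11.4 fragments against 0, 10.6 and 0. Its locus held 34, 25 and 24 against 19, 19 and 17, higher as in the transcript and without overlap. The log2 difference was 3.38 for NR_045056 (limma adjusted p = 0.182) and 0.63 for the locus (limma adjusted p = 0.176). Tug1, a widely expressed lncRNA divergent to Morc2a, had 606, 611 and 334 fragments in transcript NR_002321 against 159, 283 and 16 (limma adjusted p = 0.279). The log2 difference was 2.49 (SE 0.95) for that transcript and 0.10 for the sum of the locus (limma adjusted p = 0.655).

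**Figure D3:**
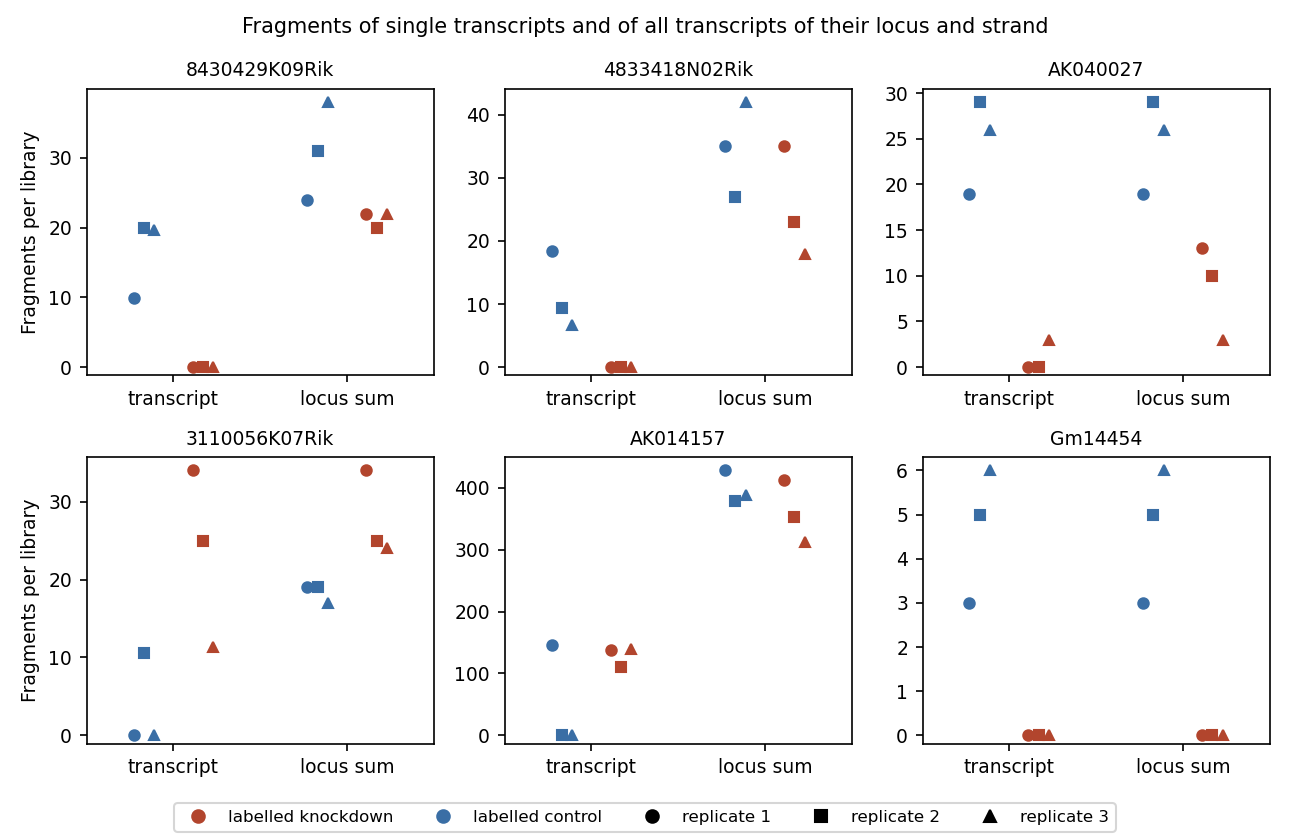
Fragments per library (y axis) for 6 lncRNA transcripts (left in each panel) and for all transcripts of the same locus and strand (right), with labelled control libraries in blue, labelled knockdown in red and a symbol for each replicate. The 8430429K09Rik transcript is at 0 in all labelled knockdown libraries while its locus sum is at 20 to 22 there; for Gm14454, alone in its locus, both are the same.

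When the transcripts of each locus and strand were summed, a step added after the data were seen, 16 of 366 loci passed limma on summed FPKM (7 higher, 9 lower), against 2.61% of all loci tested. In 15 of the 16, 1 group had no fragments, so the filter was passed through the other group and the count again supports nothing. The other locus was Gm10069, divergent to Fkbp4, named after its values were seen, with 7, 6 and 9 fragments against 22, 10 and 15 (limma adjusted p = 0.0187, edgeR adjusted p = 0.400). Its log2 difference was −2.92 on summed FPKM and −0.92 by edgeR on summed fragments. The edgeR test on summed fragments called 0 of 131 loci (12 with an unadjusted p under 0.05, lowest adjusted p = 0.109; DESeq2 called 0), against 0.0% of all. Of the 25 called transcripts, 8 share a locus with other transcripts and 0 of these loci passed limma as a sum; 17 are alone in their locus and 15 of those passed. The part of how the deposited estimates divide fragments among overlapping transcripts was not tested.

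Among the better counted lncRNAs, 0610007N19Rik, divergent to Sema5a, was singled out with its values known. It was at 5.08, 6.18 and 5.03 FPKM against 3.26, 3.48 and 3.67 FPKM. The groups did not overlap, and the log2 difference was 0.63 (SE 0.15, limma adjusted p = 0.0940, edgeR adjusted p = 0.227). Sema5a was at 32.7, 33.0 and 32.4 FPKM against 29.5, 30.3 and 28.2 FPKM, also without overlap (limma adjusted p = 0.128). Of the other characterised lncRNAs, the 3 Hoxa11os transcripts divergent to the homeobox gene Hoxa11 did not pass. The largest of their differences was in ENSMUST00000147174, at 9.56, 7.69 and 7.68 FPKM against 3.11, 8.04 and 2.14 FPKM (log2 1.11, limma adjusted p = 0.325). Emx2os was at 0.226, 0.384 and 0.204 FPKM against 0.209, 0.147 and 0.164 FPKM (limma adjusted p = 0.634).

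Of the 362 coding partners tested, 10 (2.76%) differed by limma, against 3.44% of all 11612 coding genes tested. The 5 higher partners stand against 1.83% of all coding genes and the 5 lower against 1.61%, and 78 had an unadjusted p under 0.05. The split was 1 higher and 4 lower after quantile normalization and 6 higher and 4 lower after median centring. edgeR called 42 of 361 (11.6%; 19 higher, 23 lower), against 9.95% of all coding genes, and 9 of the 10 limma calls were among them. The limma count was 1, 1 and 6 without labelled knockdown replicates 1, 2 and 3, and 1, 1 and 4 without labelled control replicates 1, 2 and 3. The groups did not overlap in 121 of the partners tested (33.4%), against 28.9% of all coding genes; 51 were higher, against 13.3%, and 70 lower, against 15.6%.

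Thbs1, which encodes the matrix glycoprotein thrombospondin 1, rose most among the partners. It was at 249, 241 and 241 FPKM in the labelled knockdown libraries and at 135, 134 and 136 FPKM in the labelled controls. The ratio of means was 1.81 (log2 0.85, SE 0.03, limma adjusted p = 6.25e-05), and it passed in all 6 fits that left out 1 library. Its divergent lncRNA Gm13986 starts 720 bases away. The more abundant transcript ENSMUST00000148587 had 19.6, 11.5 and 8.7 fragments against 3.0, 2.0 and 4.9, with every labelled knockdown library above every labelled control (limma log2 1.36, SE 0.37, adjusted p = 0.145; edgeR adjusted p = 0.183). The other Gm13986 transcript, ENSMUST00000138764, had 3.4, 2.5 and 2.3 fragments against 1.0, 3.0 and 4.1.

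Rps29, a small ribosomal subunit protein gene, was at 945, 960 and 976 FPKM against 709, 737 and 827 FPKM (log2 0.34, SE 0.06, limma adjusted p = 0.0301). Ptgs2, the inducible cyclooxygenase of prostaglandin synthesis, was at 219, 216 and 199 FPKM against 178, 175 and 162 FPKM (log2 0.30, limma adjusted p = 0.0352). Its lncRNA 7530420F21Rik had 10.8, 3.8 and 3.0 fragments against 7.0, 8.0 and 1.9, with overlapping groups. mt-Nd1, a mitochondrially encoded subunit of respiratory complex I, was at 858, 867 and 780 FPKM against 627, 710 and 621 FPKM (log2 0.36, limma adjusted p = 0.0382). Its partner transcript GU332589 was at 2.79, 3.92 and 3.71 FPKM against 2.09, 2.08 and 1.71 FPKM (log2 0.79, SE 0.20, limma adjusted p = 0.119). The table gives GU332589 and mt-Nd1 the same interval of the mitochondrial genome on opposite strands, as it does for Rmrp and Ccdc107. GU332589 is 1588 bases long, shorter than that interval, so the interval does not show whether they overlap. How strand was used is not known, and whether they share fragments was not tested. Fam120a, an RNA-binding protein gene, was at 87.3, 87.3 and 87.1 FPKM against 76.4, 77.3 and 76.2 FPKM (log2 0.19, limma adjusted p = 0.0422). Fam120aos, starting 284 bases from it, was at 3.45, 4.10 and 5.30 FPKM against 3.83, 3.87 and 2.37 FPKM and did not pass (limma adjusted p = 0.591).

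Rfc4 had the smallest limma p of the lower partners, at 14.996, 15.6 and 16.1 FPKM against 21.1, 21.4 and 20.7 FPKM (log2 −0.43, SE 0.06, limma adjusted p = 0.0159). It passed edgeR (adjusted p = 0.0130) and not DESeq2 (adjusted p = 0.0554), while Mars, Hist2h4 and Parp12 passed both. Its lncRNA AK018147 had 2, 5 and 5 fragments against 0, 4.7 and 1, too few to show a difference at this depth. Stam2, an endosomal sorting adaptor gene, was at 20.4, 21.0 and 20.4 FPKM against 28.9, 27.1 and 24.6 FPKM (log2 −0.38, limma adjusted p = 0.0387). On fragments the log2 difference was −0.16 by edgeR (adjusted p = 0.0849) and −0.16 by DESeq2 (adjusted p = 0.285). Its lncRNA AK138508 had 7, 6 and 11 fragments against 5, 2 and 3 (limma adjusted p = 0.342). It passed the level filter through the labelled knockdown group alone, so its groups could not overlap. Hist2h4, a histone H4 gene, was at 54.5, 53.7 and 57.9 FPKM against 65.5, 70.5 and 70.0 FPKM (log2 −0.31, limma adjusted p = 0.0285); as a member of a near-identical family its level is uncertain. Mars, the methionyl-tRNA synthetase gene, was at 52.2, 53.1 and 52.3 FPKM against 62.6, 62.5 and 70.2 FPKM (log2 −0.31, limma adjusted p = 0.0371). Parp12, an interferon-inducible ADP-ribosyltransferase gene, was at 46.6, 47.0 and 42.7 FPKM against 55.9, 55.0 and 52.9 FPKM (log2 −0.26, limma adjusted p = 0.0487). The lncRNAs of these last 3 genes had overlapping groups: AK155790 beside Hist2h4 had 16, 18 and 9 fragments against 7, 6 and 25, AK038773 beside Mars had 0, 2 and 0 against 7, 1 and 0, and 4930599N23Rik beside Parp12 had 8, 4 and 4 against 4, 2 and 6. Outside Thbs1, each of the 9 other partners lost its call in at least 4 of the 6 fits that left out 1 library: 6 kept it in 1 or 2 fits and 3 (Fam120a, Mars and Parp12) in none.

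**Figure D4:**
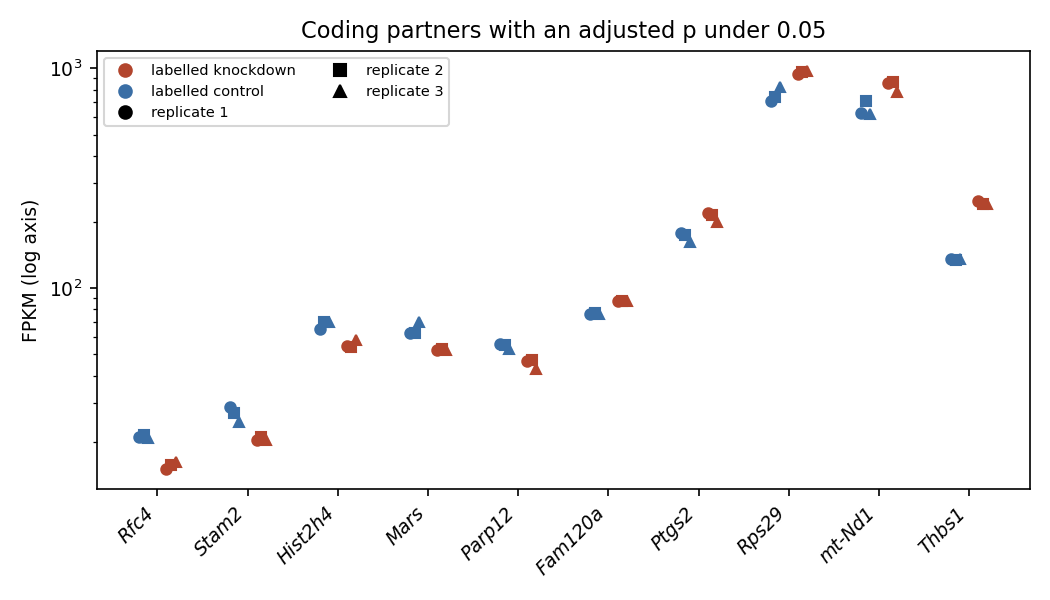
FPKM (y axis, log scale) in each library of the 10 coding partners with a limma adjusted p under 0.05, labelled control in blue and labelled knockdown in red, with a symbol for each replicate. Thbs1 shows the widest gap, 241 to 249 against 134 to 136 FPKM; the groups do not overlap for any of the 10.

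By function, few partners belonged to the gene lists examined. Of 9 partners in a list of 138 tested DNA repair and replication genes, 1 fell (Rfc4) and none rose, while the whole list had 14 lower and 1 higher. None of 12 RNA processing partners passed limma, against 8 lower and 0 higher of 185 genes; edgeR called Ncl, the nucleolin gene, lower (log2 −0.14, adjusted p = 0.0302), which is named here after its values were seen. None of 4 mitochondrial partners passed, against 2 higher and 3 lower of 168. None of 10 tested transcription factor partners passed, against 4 higher and 6 lower of 148. Nr2f1, a nuclear receptor gene, was at 4.56, 4.57 and 4.46 FPKM against 6.14, 5.95 and 5.49 FPKM (log2 −0.36, limma adjusted p = 0.0911, edgeR adjusted p = 0.0389). Smad7, an inhibitor of TGF-beta signalling, was at 21.6, 20.3 and 19.02 FPKM against 22.1, 23.6 and 23.2 FPKM (log2 −0.18, limma adjusted p = 0.179, edgeR adjusted p = 0.0457). The groups of both genes did not overlap, and edgeR called these 2 of the 10. The smooth muscle list held 1 partner, Hexim1, an inhibitor of transcription elongation, which did not pass (limma adjusted p = 0.279). Of the 36 tested genes of that list, 14 were higher and 0 lower. As a single gene, Hexim1 gives no reading on the other genes of the list.

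The changes of a single lncRNA transcript and of its coding partner, a whole gene, were set side by side for 438 pairs. They had the same sign in 207 (47.3%): both were higher in 98 and both lower in 109. The lncRNA was higher and the partner lower in 137, and the reverse held in 94. Across pairs, which share libraries and in part their coding gene, Pearson's r was −0.05 and Spearman's rho −0.05. Among the 110 pairs whose lncRNA averaged 10 or more fragments, 54 had the same sign (49.1%), with r −0.04 and rho 0.04. In 0 pairs were both the lncRNA and the partner called by limma. The median absolute log2 fold change was 0.60 for the lncRNAs and 0.10 for the partners.

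**Figure D5:**
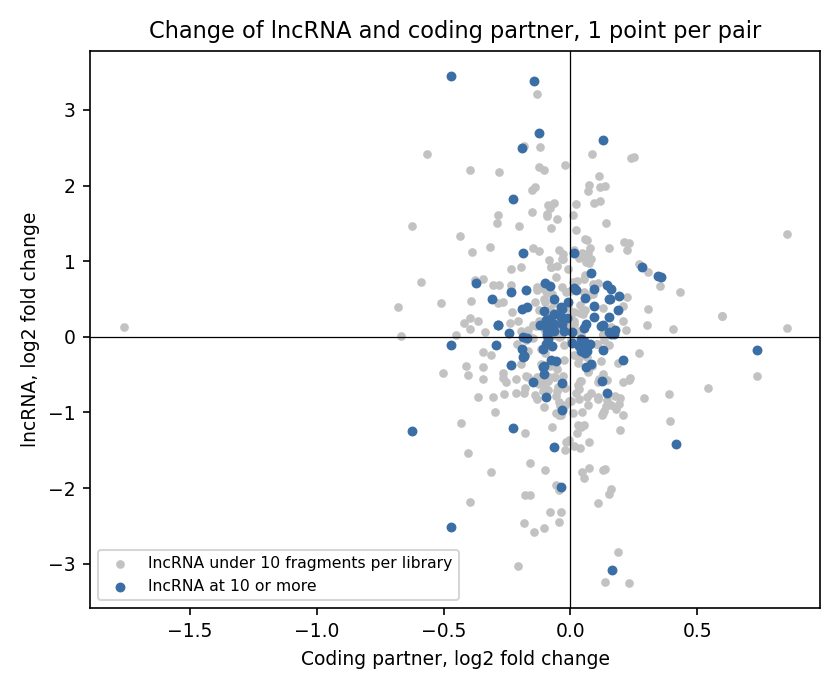
The log2 fold change of the lncRNA (y axis) against that of its coding partner (x axis), labelled knockdown minus control, 1 point per pair (438 pairs); blue points are pairs whose lncRNA averaged 10 or more fragments per library. The points spread widely on the y axis and little on the x axis, with 207 pairs of the same sign.

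The ratio of lncRNA transcript to partner gene was tested in the same way over 2789 pairs of all classes. It differed in 15 of the 438 bidirectional pairs (3.42%), against 2.87% of all pairs. The ratio was higher in 7, against 1.72% of all, and lower in 8, against 1.15%, with 70 at an unadjusted p under 0.05. In all 15 the lncRNA itself was called, in 0 the partner was called, and in 14 the lncRNA had a group with no fragments. Those 14 lncRNAs passed the level filter through the other group alone, so the count of ratios again supports nothing. The count was 3, 2 and 12 without labelled knockdown replicates 1, 2 and 3, and 4, 2 and 2 without labelled control replicates 1, 2 and 3. For Thbs1 and Gm13986 the ratio difference was 0.51 on the log2 scale (SE 0.34, limma adjusted p = 0.568), so a change of the lncRNA by another amount than Thbs1 was not detectable at this depth. For Rpph1 and Parp2 it was 0.00 (SE 0.14, limma adjusted p = 0.990).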

How the data were processed

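RNA-seq of 6 libraries was used, 3 per group, as tables of the authors' values. Per the file headers, the deposited values are FPKM and estimated counts. Both mm10 and mm9 are named as builds in the submitters' processing notes, which list Cuffdiff 2.2.1, HISAT2 2.0.4, cutadapt and Cufflinks as tools; for the annotation release and the use of strand, the sources used here give nothing. From the values, the deposited counts are scaled by a constant per library. Dividing it out gave whole fragments (within 0.01) for 89.5% to 90.5% of coding values and 61.1% to 62.1% of lncRNA values; the rest were fractional.

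From these, limma 3.58.1 (with trend) was run on log2(FPKM + 0.1), which understates the change of low genes, over all lncRNA transcripts with at least 0.1 FPKM and all coding genes with at least 0.5 FPKM in at least 3 libraries, with Benjamini-Hochberg adjustment and a threshold of 0.05. The recovered fragments, rounded, entered edgeR 4.0.16 (quasi-likelihood) and DESeq2 1.42.0. Ratios were log2 differences within a pair. Fits that left out libraries asked for the level in as many libraries as their smaller group held. The set tested and its adjustment therefore changed along with the libraries. For a single gene, 3 against 3 libraries cannot go below p = 0.1 in an exact permutation test. Libraries of a group differed by more than counting noise (chi-square per gene 2.40 to 5.85), so each was kept as a replicate. The scripts were tested on simulated data.

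Named items were Myocd, called members and partners by smallest p, and the 8 most abundant members. Added were the 6 largest rises and falls without overlap among members with at least 0.5 FPKM in a group, and called ratios. Characterised lncRNAs, members with a partner in the smooth muscle or transcription factor list, and the pair mates of all these completed the set. The members, lists and tests were chosen with earlier results of these data known. Promoter sequences and windows are from RefSeq on GRCm38.p6, matched by symbol for 278 of 367 partners; 174 window starts equalled the start in the table and 237 lay within 100 bases of it, so coordinates were read as mm10. Windows farther off need not be the promoter shared with the lncRNA. For partners the window nearest the start in the pair was taken, and for the tested coding genes the first listed. Windows on chromosome 18 were left out.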

Additional observations from a re-analysis of the deposited data

How the results depend on the processing

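Counts of calls are given in the order lncRNA transcripts, coding partners and ratios, with 25, 10 and 15 as reported. With a pseudocount of 0.01 the ratios rose to 31, and with 1 the lncRNAs fell to 8 and the ratios to 1. Without a filter the lncRNAs were 3 and the partners 4; a stricter filter (0.5 FPKM for lncRNAs, 1 FPKM for coding genes) gave 2 lncRNAs and 4 ratios. Quantile normalization gave 5 partners, and limma without trend 2. edgeR gave 0 lncRNAs and 42 partners, and DESeq2 4 and 23. Leaving out 1 library gave 0 to 27, 1 to 6 and 2 to 12. Leaving out both replicate 3 libraries gave 3 partners and 0 ratios. Alternatives chosen after seeing the data were sums per locus (limma 16, edgeR 0, DESeq2 0) and edgeR scaled by the coding table (0). The other counts stayed within 1.5 times. Same-numbered libraries paired weakly at most (correlations of deviations −0.00 to 0.10 in coding genes, highest for replicate 3). Differently numbered libraries gave −0.09 to 0.06, and an effect shared by the replicate 3 libraries was not tested. With the replicate number as a block the counts were 0, 7 and 0. Among named items, signs changed as follows (log2). By locus sums in limma, edgeR and DESeq2 in turn: AK014157 −0.0212, −0.0146 and −0.0117, 8430429K09Rik NR_045275 −0.261, −0.397 and −0.396, Foxd2os 0.290, 0.0816 and 0.0854, Hoxa11os ENSMUST00000137729 0.487, 0.288 and 0.290, and Rmrp NR_001460 −0.0212, −0.0258 and −0.0226. By locus sums in limma alone, Gas5 NR_002840 and ENSMUST00000159438 became 0.0673. By edgeR and DESeq2 locus sums, Gas5 ENSMUST00000065709 and ENSMUST00000161229 became −0.191 and −0.188, and 1110019D14Rik −0.0498 in both; by DESeq2 alone AK039820 became −0.246. By edgeR and DESeq2 per gene or transcript, Arid4a became 0.0878 and 0.0857, Zbtb37 −0.0324 and −0.0339, and Hoxa11os ENSMUST00000141850 −0.0115 and −0.00723; by DESeq2 alone Gm13986 ENSMUST00000138764 became −0.0662 and Gas5 ENSMUST00000159438 0.240. Rmrp became 0.0053 by edgeR scaled by the coding table, and Hoxa11os ENSMUST00000141850 −0.0647 by quantile normalization. Without both replicate 3 libraries, Fam120aos became −0.0330, Myl6b −0.0598, 7530420F21Rik −0.0670 and Hoxa11os ENSMUST00000141850 −0.115. Leaving out 1 library gave −0.140 to 0.303 for Gm13986 ENSMUST00000138764, −0.288 to 0.428 for 7530420F21Rik, −1.46 to 0.0389 for AK038773, −0.709 to 0.0396 and −0.137 to 0.147 for the Hoxa11os transcripts ENSMUST00000137729 and ENSMUST00000141850, −0.563 to 0.242 for Mfsd2a, −0.0168 to 0.239 for Zbtb37 and −0.185 to 0.0477 for Ccdc107. The cause was not tested. Over the items recomputed here, 1206 values kept their direction and side of the threshold, 165 lost the call, 14 gained it and 51 changed sign. Fewer than 20 fragments in 195 members limit what could be detected.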
